A study of Mus musculus with 4 samples.

Results

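Rab GTPases are the largest family of small GTPases that sort membrane between organelles, and their RNA was compared here between mouse bone marrow-derived macrophages of 2 polarization states. The members are the protein-coding genes whose mouse symbol is Rab followed by a number and, where present, a letter, so that regulators such as Rabep1 or Rab3il1 are not among them. The rule found 59 genes of the 49315 in the deposited count table, used no expression value, and 58 of the 59 had at least 1 count. After the filter on low counts, 49 Rab genes remained among 14656 tested genes. Of these 49, 43 passed that filter in both groups, 4 (Rab4a, Rab36, Rab38 and Rab44) through their M2 libraries alone, and 2 (Rab33a and Rab39b) through their M1 libraries alone.

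Bone marrow of Lyz2Cre+ mice was cultured in L-cell supernatant for 7 days and then held in serum-free polarizing medium for 24 hours. M1 cells (n = 2 libraries) received 100 ng/ml LPS, a bacterial cell wall component, and 50 ng/ml IFNg. M2 cells (n = 2 libraries) received 10 ng/ml IL-4 and 10 ng/ml IL-13. All 4 libraries carry the Lyz2Cre allele, in which Cre recombinase is expressed from the myeloid Lyz2 locus, and age, sex and strain background of the mice are not given for them. Erlotinib, an EGFR kinase inhibitor, appears in the protocol, but no label tells which cells, if any of these, were given it. There is no unpolarized library, so a gene higher in M2 is the same observation as a gene lower in M1. Whether the 2 libraries of a group stem from different mice or dishes is not stated, so the spread behind every p-value is that between libraries and may be technical.

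A Rab protein is active when bound to GTP and inactive when bound to GDP. Guanine nucleotide exchange factors (GEFs) load it with GTP at its membrane, GTPase-activating proteins (GAPs) switch it off, and while it is active it recruits effectors such as tethers, motors and adaptors. A lipid anchor added by prenylation holds Rabs on membranes, and GDP dissociation inhibitors carry the inactive form through the cytosol. In macrophages Rabs are best known for phagosome and endosome maturation, lysosome traffic, recycling of surface receptors and secretion of cytokines and enzymes.

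Depth was 26806370 to 39506242 counts per library. Nos2, the inducible nitric oxide synthase that marks M1 cells, stood at 8035 and 7258 TMM-normalized CPM (CPM, a gene's count relative to the depth of its library) in M1 and at 10.6 and 9.66 in M2. Mrc1, the mannose receptor that marks M2 cells, stood at 2.88 and 2.03 CPM in M1 and at 1058 and 1012 in M2, so both genes match the labels. The 7 macrophage markers were detected in every library and together reached 5173 and 4953 CPM in M1 and 4444 and 4334 in M2. Within that sum Cd68 (10.5-fold) and Csf1r (6.21-fold) were higher in M2, and Fcgr1 (26.9-fold), Mertk (8.21-fold), Itgam (5.74-fold), Lyz2 (3.91-fold) and Adgre1 (2.32-fold) lower. Lyz2 is also the locus that carries Cre in all 4 libraries, and whether the allele alters its counts was not tested. Changes below are log2 fold changes of M2 minus M1 with their standard error, and adjusted p-values come from edgeR's quasi-likelihood test with Benjamini-Hochberg adjustment over all 14656 tested genes. A gene is called at an adjusted p under 0.05.

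Of the 49 tested Rab genes, 17 were called higher in M2, 24 lower in M2 and 8 were not called. The share called was 83.7%, beside 77.2% of all tested genes, so a called Rab gene is the rule in a comparison in which most genes differ. The Rab calls leaned to M1, with 34.7% of tested members higher and 49% lower in M2, beside 39.7% and 37.5% of all tested genes. The share of Rab calls higher in M2 moved with the scaling. It was 41.5% with TMM factors, 50% with upper-quartile scaling and 64.3% with total counts alone. Among all calls the share was 51.4%, 60.8% and 71.9%, so that of Rab calls was the lower under each of these scalings. Among the 43 Rab genes that passed the filter in both groups, 14 were higher, 22 lower and 7 not called, and 76.7% of all 12192 such genes were called.

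Most Rab changes were modest. The median change of the tested members was -0.15, beside 0.04 for all tested genes, and the median absolute change was 0.68, beside 0.76. Of the 41 called Rab genes, 25 changed by less than 1 on the log2 scale. A call with a change of at least 1 was made for 8 genes higher and 8 lower in M2. That is 32.7% of the tested members, beside 40.7% of all tested genes. Of those higher, Rab4a, Rab36 and Rab44 passed the filter only through M2, and of those lower, Rab33a and Rab39b only through M1. The filter thus favoured the direction of these genes. The libraries of the groups did not overlap in 46 of the 49 genes (93.9%, beside 88.5% of all tested genes), and the 3 with overlap were Rab3a, Rab27a and Rab38. Replicates lay close together: among members of at least 5 CPM, the median absolute log2 difference between replicates was 0.06 over 35 genes in M1 and 0.03 over 37 genes in M2, and the largest was 0.54, for Rab13 in M1.

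**Figure D1:**
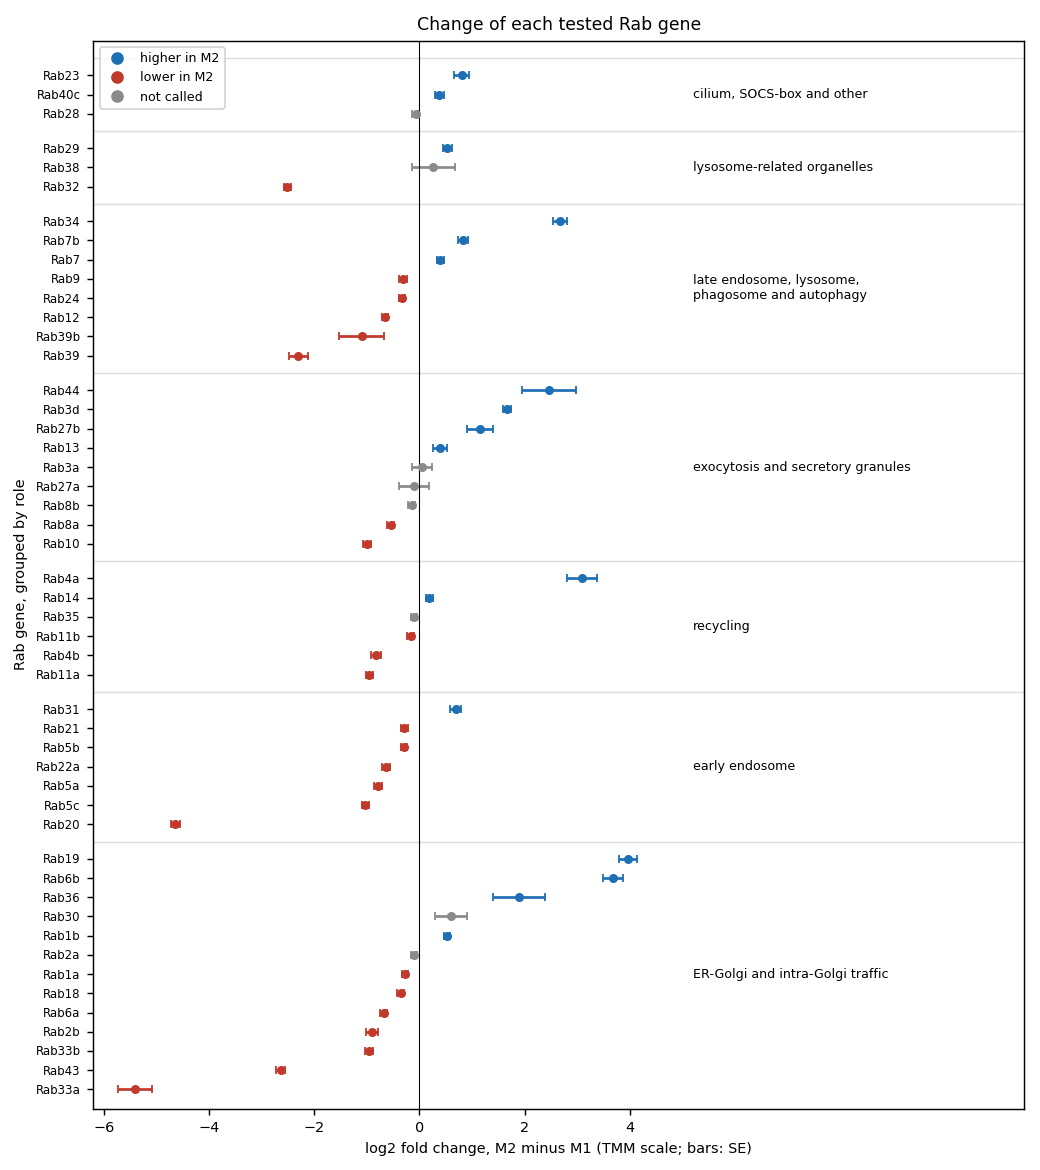
Log2 fold change (M2 minus M1, TMM scale) of each of the 49 tested Rab genes, grouped by role; points are the fitted change and bars 1 SE, blue for called higher in M2, red for called lower and grey for not called. Rab19 (3.97) and Rab6b (3.67) lie farthest to the right and Rab33a (-5.41) and Rab20 (-4.64) farthest to the left, while 6 of the 7 early endosome Rabs lie on the M1 side on this scale and 4 of them on total counts.

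The 16 genes with large changes were Rab3d, Rab4a, Rab6b, Rab19, Rab27b, Rab34, Rab36 and Rab44, higher in M2, and Rab5c, Rab10, Rab20, Rab32, Rab33a, Rab39, Rab39b and Rab43, lower in M2. Their promoters were searched for letters that factors downstream of LPS, interferons and IL-4 are known to bind. Promoter windows of 300 bases, from 250 before to 50 after the gene start (RefSeq, GRCm38.p6), were found for 48 of the 59 members and for 12 of the 16 with large changes. Letters searched on both strands were TTCNNNGAA (a GAS element), the STAT6 type (TTC and GAA with any 4 bases between), the ISRE type of interferon regulatory factors (GAAA and GAAA with any 2 bases between), an NF-kappaB type (GGG and TTCC with any 3 bases between) and CACGTG (an E-box). Rab19, Rab34 and Rab20 were the 3 large-change members with a match. The stretches around the matches are shown for that reason, and capitals mark the matched letters. Rab19 has a GAS match from base -209 to -201 and 2 overlapping ISRE-type matches, read on the opposite strand, from -10 to 6. Rab34 has a GAS match from -200 to -192 and Rab20 an E-box from -46 to -41. Positions count from the RefSeq starts, which can differ from the gene spans given below, taken from GENCODE. The Rab19 ISRE-type letters and the Rab20 E-box lie inside those spans.
Rab19 GAS (chr6:39381133-39381162, + strand): caggaaggatgTTCGATGAAggatgcagag
Rab19 ISRE type (chr6:39381336-39381365, + strand): gcccttgTTTCCCTTTCGCTTTCtctgtcc
Rab34 GAS (chr11:78188216-78188245, + strand): cttctttatctTTCATGGAAggaggctcga
Rab20 E-box (chr8:11478669-11478698, - strand): cggccgggcaccCACGTGgtcgcagggctg
Such letters are common. A GAS match occurred in 9.55% of the 27025 genes with a window and in 5 of the 48 members (Rab11a, Rab15, Rab19, Rab25 and Rab34), a STAT6-type match in 8.01% and in 3 (Rab5b, Rab11b and Rab15), and an ISRE-type match in 3.99% and in Rab19 alone. An NF-kappaB-type match occurred in 6.31% of genes and in 4 members (Rab9, Rab11a, Rab15 and Rab28), and an E-box in 8.09% and in 6 (Rab5a, Rab20, Rab21, Rab23, Rab24 and Rab27a). Over the 5 letter sets together, the members with a match include Rab genes called higher, called lower and not called.

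The ER and Golgi Rabs, which guide the early secretory pathway, included Rab33a, Rab43, Rab19 and Rab6b, all with changes beyond 2 on the log2 scale. Of 13 members, all tested, 4 were higher in M2 (Rab1b, Rab6b, Rab19 and Rab36), 7 lower (Rab1a, Rab2b, Rab6a, Rab18, Rab33a, Rab33b and Rab43) and 2 not called. On total counts the numbers were 7 higher and 5 lower. Over all tested genes 39.7% were called higher and 37.5% lower, and on total counts 71.9% of all calls were higher. These shares also stand beside the counts of the groups below. Rab33a, a Rab of post-Golgi vesicles found in neurons and immune cells (chrX:48519285-48530232, + strand), was at 4.08 and 3.9 CPM in M1 and at 0.0958 and 0.0868 in M2. Both M1 libraries lay far above both M2 libraries, which held 3 and 4 counts against 119 and 96. Rab33a passed the filter on low counts only through M1. The fitted change was -5.41 ± 0.32 (adjusted p = 4.87e-10), and the ratio of pooled counts, M1 over M2, was 44.2 with an exact 95% interval of 21.1 to 111 that covers counting error only.

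Rab43 (chr6:87788853-87812164, - strand), a Golgi Rab also known for antigen cross-presentation in dendritic cells, was at 50.2 and 49.3 CPM in M1 and at 7.76 and 8.14 in M2. The M2 libraries were both far below M1, and the change was -2.64 ± 0.08 (adjusted p = 1.05e-13). Exons of the predicted gene Gm45140 cover 75.4% of its exon length on the same strand, and that gene was given 6 to 23 counts per library, and reads in the shared exons cannot be told apart between the 2 genes. Rab33b, the Golgi Rab that binds the autophagy protein Atg16L1, changed by -0.96 ± 0.08 (adjusted p = 1.77e-08), so both Rab33 genes were lower in M2.

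Rab19 (chr6:39381175-39390380, + strand), a Golgi-associated Rab, was at 0.961 and 0.895 CPM in M1 and at 13.5 and 15.7 in M2. The M2 libraries were 15.7-fold higher and did not overlap with M1 (log2 change 3.97 ± 0.17, adjusted p = 6.17e-12). Rab6b (chr9:103111787-103185276, + strand), the form of Rab6 known best from neurons, was at 0.652 and 1.18 CPM in M1 and at 12.2 and 10.8 in M2. All M2 values were again above all M1 values, with a change of 3.67 ± 0.19 (adjusted p = 1.63e-10, 12.7-fold). Its partner Rab6a, the ubiquitous Rab of retrograde Golgi transport, moved the other way by -0.68 ± 0.07 (adjusted p = 1.99e-07); exons of Mrpl48 on the opposite strand cover 19% of its exon length, and Mrpl48 was higher in M2 by 0.25. Rab36, a Golgi relative of Rab34, was near the detection limit at 0.24 and 0.0813 CPM in M1 and 0.543 and 0.695 in M2, with a pooled count ratio of 3.78 (95% interval 1.84 to 8.75). It was called with an adjusted p of 0.00299, on 9 counts in M1 and 49 in M2, and passed the filter only through M2. Its fitted change of 1.89 ± 0.50 became 2.89 without M1 replicate 1 and 1.37 without M1 replicate 2.

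Rab1a and Rab1b, which carry ER-to-Golgi traffic, differed in direction on the TMM scale. Rab1b was at 114 and 118 CPM in M1 and 165 and 169 in M2 (0.52 ± 0.06, adjusted p = 1.22e-06), higher in both M2 libraries. Rab1a was at 338 and 315 CPM in M1 and 265 and 272 in M2, a change of -0.28 ± 0.06 (adjusted p = 0.001) that lost its call with upper-quartile scaling and turned to 0.17 on total counts. Rab2a, which acts between Golgi and ER, was at 164 and 157 CPM in M1 and 149 and 153 in M2 and was not called (-0.10 ± 0.06, adjusted p = 0.165). Its minor partner Rab2b changed by -0.90 ± 0.12 (adjusted p = 9.47e-06). The lipid droplet and ER Rab Rab18 changed by -0.36 (adjusted p = 6.34e-05) with TMM but by 0.09 on total counts. Rab30, a Golgi Rab at about 1 CPM, was not called (0.60 ± 0.30, adjusted p = 0.0799), though it was with upper-quartile scaling (0.78) and on total counts (1.04).

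**Figure D2:**
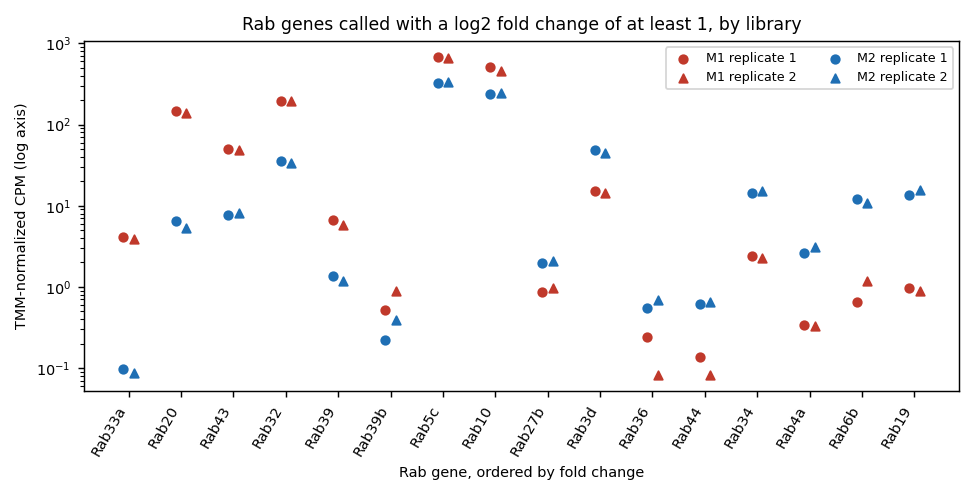
TMM-normalized CPM (log axis) of the Rab genes called with an absolute log2 fold change of at least 1, 1 point per library, M1 in red and M2 in blue. In each gene shown the points of the groups do not overlap; Rab20 drops from 146 and 141 CPM to 6.42 and 5.28, and Rab19 climbs from 0.961 and 0.895 to 13.5 and 15.7.

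Early endosome Rabs fuse and sort newly internalised vesicles. On the TMM scale most of them were lower in M2, beside 37.5% of all tested genes called lower. Of 7 members, Rab5a, Rab5b, Rab5c, Rab20, Rab21 and Rab22a were called lower and Rab31 higher; with upper-quartile scaling 4 were lower and 1 higher, and on total counts 4 were lower and 3 higher. Rab20 (chr8:11453518-11478710, - strand), an endosome and phagosome Rab described as interferon gamma-inducible in macrophages, was at 146 and 141 CPM in M1 and at 6.42 and 5.28 in M2. The M1 libraries were 24.9-fold above M2 with no overlap (-4.64 ± 0.09, adjusted p = 5.94e-16). A noncoding gene on the opposite strand, E230013L22Rik, overlaps 25.6% of its exon length and was also lower in M2 (-4.34), with 123 and 79 counts in M1 beside 4260 and 3466 for Rab20. The library kit does not mark strand, so reads from opposite-strand neighbours cannot be told apart here or at the other overlaps named.

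Rab5c, 1 of the 3 Rab5 forms that drive early endosome fusion, was at 688 and 663 CPM in M1 and 325 and 335 in M2. Both M2 libraries lay below both M1 libraries, with a change of -1.03 ± 0.07 (adjusted p = 1.24e-09). Rab5a changed by -0.79 (adjusted p = 2.65e-08) and Rab22a, which sorts cargo within early endosomes, by -0.64 (adjusted p = 1.01e-05). Rab5b changed by -0.30 (adjusted p = 3.51e-04) and Rab21, known for integrin traffic, by -0.29 (adjusted p = 0.0018), and both lost their calls with upper-quartile scaling and turned to 0.15 and 0.16 on total counts. Rab31, close in sequence to Rab22a and active between the trans-Golgi network and endosomes, was at 155 and 122 CPM in M1 and 224 and 224 in M2 (0.69 ± 0.10, adjusted p = 8.00e-05).

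In the recycling group, which returns endocytosed receptors to the surface, 6 of 9 members were tested: Rab4a and Rab14 were called higher, Rab4b, Rab11a and Rab11b lower, and Rab35 was not called. On total counts 4 of the 6 were higher and 2 lower. Rab4a, a Rab of fast recycling, was at 0.343 and 0.325 CPM in M1 and 2.65 and 3.08 in M2. M2 lay above M1 in every library (3.09 ± 0.29, adjusted p = 1.04e-07), on 18 counts in M1 and 225 in M2. Rab4a passed the filter only through M2. Its partner Rab4b was lower in M2 (-0.83 ± 0.10, adjusted p = 1.71e-06).

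Rab11a, the main Rab of the slow recycling endosome, was at 204 and 185 CPM in M1 and 100 and 101 in M2 (-0.95 ± 0.07, adjusted p = 3.17e-09), with no overlap. Its partner Rab11b was called at -0.17 (adjusted p = 0.016), a small change that lost its call without M2 replicate 1 (-0.13) or M2 replicate 2 (-0.18), was 0.01 with upper-quartile scaling and turned to 0.28 on total counts. Rab14, which works between endosomes and the Golgi, was called at 0.19 (adjusted p = 0.0115) and lost its call without either M2 library (0.21 and 0.20). Rab35, a Rab of fast recycling, gave -0.10 (adjusted p = 0.127), and was at 0.08 with upper-quartile scaling.

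Exocytic and granule Rabs carry vesicles and granules to the plasma membrane. Of 13 members, 9 were tested: Rab3d, Rab13, Rab27b and Rab44 were called higher, Rab8a and Rab10 lower, and Rab3a, Rab8b and Rab27a were not called; on total counts 6 were higher and 1 lower. Rab3d, a Rab of regulated secretory granules, was at 15.3 and 14.5 CPM in M1 and 48.8 and 45.3 in M2. Both M2 libraries were above both M1 libraries (1.66 ± 0.08, adjusted p = 2.68e-11, 3.15-fold). Rab27b, a granule docking Rab, was at 0.858 and 0.976 CPM in M1 and 1.95 and 2.08 in M2 (1.15 ± 0.24, adjusted p = 5.44e-04), whereas its partner Rab27a, at 0.862 to 1.34 CPM with overlapping groups, was not called (-0.10, adjusted p = 0.766). Rab44, a large Rab with calcium-binding EF hands known from granulocytes and mast cells, was at 0.137 and 0.0813 CPM in M1 and 0.607 and 0.651 in M2. It had 6 against 49 counts (ratio 5.67, 95% interval 2.43 to 16.2, adjusted p = 4.30e-04) and passed the filter only through M2.

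Rab10, which delivers vesicles to the plasma membrane, was at 506 and 464 CPM in M1 and 241 and 244 in M2, 2-fold lower in M2 with both M2 libraries below both M1 libraries (SE 0.07 on the log2 scale, adjusted p = 2.14e-09). Its relative Rab8b was at 489 and 438 CPM in M1 and 419 and 415 in M2 and was not called (-0.15 ± 0.07, adjusted p = 0.0607); its value was 0.03 with upper-quartile scaling and 0.30 on total counts. Rab8a, also of the route from Golgi to plasma membrane, changed by -0.55 (adjusted p = 5.35e-07), and its call was lost on total counts (-0.10). Rab13, a Rab of junctional and surface delivery, was at 11.1 and 7.65 CPM in M1 and 12.4 in both M2 libraries; its call (0.39 ± 0.14, adjusted p = 0.0246) was lost without M1 replicate 2 (0.16). Rab3a, the synaptic vesicle Rab, was at 2.6 to 3.43 CPM with overlapping groups (0.05, adjusted p = 0.827), and was called only on total counts (0.50).

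All 8 tested members of the late endosome, lysosome, phagosome and autophagy group (of 10) were called, beside 77.2% of all tested genes. Rab7, Rab7b and Rab34 were higher in M2 and Rab9, Rab12, Rab24, Rab39 and Rab39b lower; on total counts 3 were higher and 2 lower. Rab34 (chr11:78188430-78192193, + strand), known for phagosome maturation and lysosome positioning, was at 2.37 and 2.28 CPM in M1 and 14.5 and 15.2 in M2. The M2 libraries were 6.37-fold higher (2.67 ± 0.13, adjusted p = 2.95e-11). Rab7, the central Rab of late endosome and lysosome fusion, was at 419 and 404 CPM in M1 and 542 and 547 in M2 (0.40 ± 0.06, adjusted p = 4.16e-05). Rab7b, a late endosomal Rab described as lowering Toll-like receptor signalling, changed in the same direction by 0.83 ± 0.10 (adjusted p = 3.09e-05), and its M1 libraries stood at 148 and 116 CPM against 235 and 236 in M2.

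Rab39, a phagosome Rab that binds caspase-1, was at 6.66 and 5.82 CPM in M1 and 1.37 and 1.19 in M2. It was lower in both M2 libraries with no overlap (-2.30 ± 0.18, adjusted p = 9.88e-09). Rab39b, its neuronal relative, was at 0.515 and 0.895 CPM in M1 and 0.223 and 0.391 in M2 on 37 and 25 counts; its call (-1.10 ± 0.43, adjusted p = 0.0293) was lost without M1 replicate 2 (-0.68), without M2 replicate 1 (-0.80), under upper-quartile (-0.91) or total-count scaling (-0.65) and with DESeq2 (-1.19). Rab39b also passed the filter only through M1. Rab12, which sends transferrin receptor to lysosomes, changed by -0.65 ± 0.06 (adjusted p = 7.26e-08). Rab9, of late endosome to Golgi transport, and Rab24, linked to autophagy, changed by -0.31 and -0.33 with TMM (adjusted p = 6.06e-04 and 2.01e-04) and turned to 0.14 and 0.11 on total counts, and Rab9 also lost its call with upper-quartile scaling (-0.13). Exons of Prelid1 on the opposite strand overlap 62.4% of Rab24, and Prelid1, at 265 and 272 CPM in M1 and 145 and 162 in M2, was lower too (-0.81).

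Among Rabs of lysosome-related organelles, Rab32 was lower, Rab29 higher and Rab38 not called. Rab32 (chr10:10545002-10558265, - strand), which acts in melanosome biogenesis and in macrophage defence against Salmonella, was at 196 CPM in both M1 libraries and at 35.6 and 33.3 in M2. The M2 libraries were 5.7-fold lower (-2.51 ± 0.07, adjusted p = 1.89e-14). Rab29, which recruits the kinase LRRK2 to membranes, was at 17.7 and 17.1 CPM in M1 and 24.8 and 25.6 in M2 (0.53 ± 0.08, adjusted p = 1.98e-05). Rab38, the close relative of Rab32, was at 0.285 to 0.521 CPM with overlapping groups (0.26 ± 0.41, adjusted p = 0.578). In the group of ciliary, SOCS-box and other Rabs, Rab23, a regulator of Hedgehog signalling, was higher by 0.80 ± 0.14 (adjusted p = 9.21e-05) and Rab40c, a ubiquitin ligase subunit with a SOCS box, by 0.38 ± 0.08 (adjusted p = 3.40e-04). Rab28, known from photoreceptor cilia, gave -0.07 (adjusted p = 0.382), and 0.11 with upper-quartile scaling.

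The 10 Rab genes that were not tested were at or near the floor of detection in both groups. Rab9b had no count in any library, which allows up to 3 counts in each. Rab3b, Rab3c, Rab15, Rab17, Rab25, Rab26 and Rab37, mostly Rabs of epithelial, neuronal or granule secretion, had at most 13 counts in any library. Rab40b had no count in M1 and 7 and 12 in M2, and Rab42 had none in M1 and 17 and 9 in M2. With the M1 group taken at its limit of 3 counts, Rab40b was at least 4.4-fold and Rab42 at least 6.02-fold higher in M2, as pooled counts and with no test. With counting error in M2 as well, the exact 95% lower limits of these ratios were 3.24 and 4.55.

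Per exon length, a few Rabs made up most of the Rab RNA. Levels between genes are given as FPKM, the TMM-normalized CPM divided by the union length of a gene's exons in kilobases, which does not account for which transcript is used. By the mean over all 4 libraries the 10 most abundant Rabs were Rab5c, Rab7, Rab10, Rab8b, Rab1a, Rab2a, Rab1b, Rab20, Rab11a and Rab32, which are also the 10 highest in M1. They held 70.4% of the summed Rab FPKM in M1 and 62.8% in M2. The 10 highest in M2, where Rab31, Rab7b and Rab35 stand in place of Rab20, Rab11a and Rab32, held 70.1% of the M2 pool. Rab5c had the highest mean level in M1 (308 FPKM) and came after Rab7 in M2 (150). Rab7 went from 158 FPKM, rank 2, to 209, rank 1. Rab20 went from rank 4 (103 FPKM) to rank 34 (4.2 FPKM) and Rab32 from rank 7 (83.8) to rank 23 (14.7). Rab1b went from rank 10 (51.1) to rank 4 (73.4).

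The make-up of the Rab pool does not depend on the scaling factor, because every gene of a library is divided by the same factor. Early endosome Rabs made up 32.9% ± 0.132 (SD, n = 2) of summed Rab FPKM in M1 and 22.7% ± 0.0751 in M2. The late endosome, lysosome, phagosome and autophagy group made up 16.9% ± 0.179 in M1 and 26.7% ± 0.0421 in M2, so the order of these 2 groups was exchanged. Within the late group, Rab7 went from 9.53% to 16.7% of the pool and Rab7b from 1.72% to 4.08%. Within the early endosome group, Rab5c went from 18.6% to 12.1% and Rab20 from 6.23% to 0.337%, while Rab31 went from 2.19% to 4.71%. The ER and Golgi group went from 18.2% ± 0.148 to 22.2% ± 0.145, and the lysosome-related organelle group from 5.8% ± 0.193 to 2.58% ± 0.0452. Recycling Rabs held 8.9% ± 0.0421 and 8.92% ± 0.00818, with M1 libraries at 8.87% and 8.93%, and exocytic Rabs 16.6% ± 0.448 and 15.7% ± 0.141. With 2 libraries per group an exact permutation test of a share cannot reach 0.05, so these shares are given without a test, but in all groups other than recycling the M1 and M2 libraries did not overlap.

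The size of the pool did depend on scaling. Summed Rab CPM was 5277 ± 232 (SD, n = 2) in M1 and 4248 ± 28.5 in M2 with TMM, and 4514 and 4959 on total counts. Rab genes took 0.451% of all counts in M1 and 0.496% in M2. The sum was lower in M2 with TMM and higher on total counts, and no difference is read from it. These are bulk libraries, in which fewer cells of a type and less RNA per cell cannot be told apart.

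**Figure D3:**
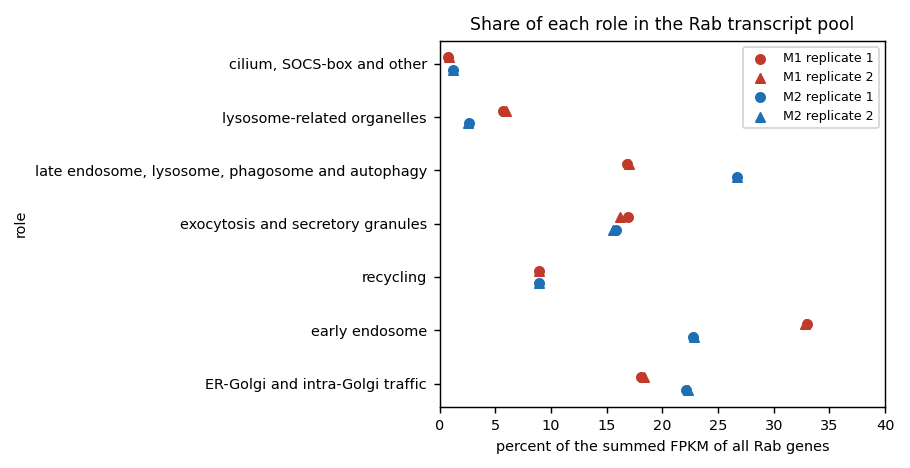
Percent of summed Rab FPKM held by each role group, 1 point per library, M1 in red and M2 in blue, circles for replicate 1 and triangles for replicate 2. The early endosome share is 33% and 32.8% in M1 and 22.7% and 22.8% in M2, and the late endosome, lysosome, phagosome and autophagy share 16.8% and 17% in M1 and 26.7% in both M2 libraries.

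Within sets of closely related Rabs, the share of RNA that each member supplied differed between the states, and these shares do not depend on scaling either. By FPKM, the main supplier itself changed in 4 of the sets described here, those of Rab19, of Rab32, of Rab1 and of Rab8. In mean CPM of M2, Rab1a (268) still lay above Rab1b (167), and Rab32 (34.4) above Rab29 (25.2). The exchanges in the Rab1 and Rab32 sets thus depend on the division by exon length. In M1, Rab43 supplied 93.1% ± 0.0919 (SD, n = 2) of the FPKM of the related Rab19, Rab30 and Rab43, and in M2 Rab19 supplied 85.6% ± 1. Rab32 supplied 87.4% ± 0.321 of the set Rab29, Rab32 and Rab38 in M1 and 45.7% ± 1.74 in M2, where Rab29 supplied 53.3% ± 1.63. Rab1b went from 37.3% ± 1.72 of Rab1 to 51% ± 0.0966. The share of Rab4a in Rab4 went from 1.91% ± 0.138 to 22.8% ± 2.03, that of Rab6b in Rab6 from 0.42% ± 0.199 to 7.66% ± 0.465, and that of Rab33a in Rab33 from 27.6% ± 1.35 to 1.67% ± 0.0866. Rab31 held 69.7% ± 0.775 of the pair with Rab22a in M1 and 85.4% ± 0.224 in M2, and Rab27b 22.7% ± 2.54 and 41.7% ± 4.74 of Rab27. In each of these sets the named member's libraries did not overlap between groups. Rab43 and Rab4b share 75.4% and 65% of their exon length with another gene on the same strand. Their FPKM divides by the full exon length, so their shares may be too low and those of Rab19 and Rab4a too high.

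Among the remaining sets, Rab5c was the main Rab5 at 83.5% ± 0.0576 in M1 and 77.6% ± 0.00521 in M2, Rab11a the main Rab11 at 79.2% ± 1.08 and 69% ± 0.208, and Rab7 held 84.7% ± 1.95 and 80.4% ± 0.0723 of the pair with Rab7b. Rab2a held 97.6% and 98.6% of Rab2, shares that may be too high, since opposite-strand exons overlap 59.3% of the exon length of Rab2b. Rab3d was the main Rab3 in both states, at 72.2% ± 3.48 and 88.8% ± 1.95. In the set Rab8a, Rab8b, Rab10 and Rab13, the leading gene went from Rab10 (51.4% ± 0.22) to Rab8b (48.4% ± 0.339), while Rab8a stayed at 10.7% in both with overlapping libraries.

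**Figure D4:**
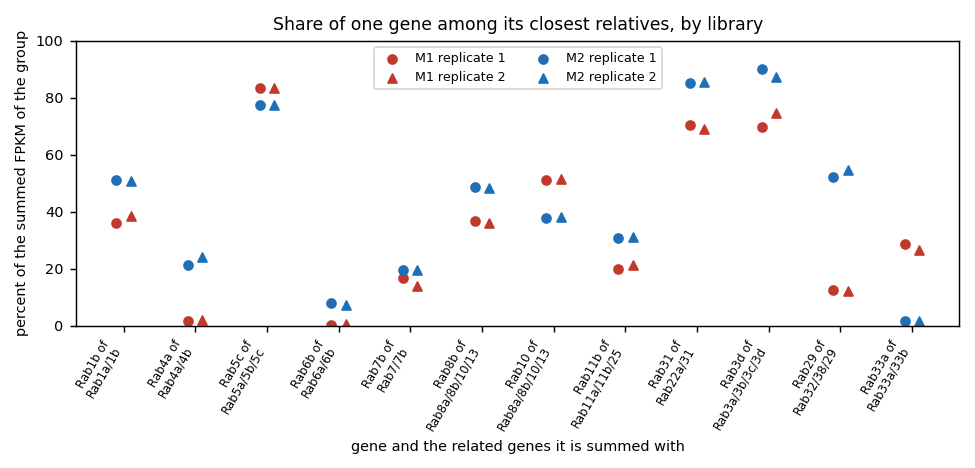
Percent of the summed FPKM of a set of related Rabs held by 1 named member, 1 point per library, M1 in red and M2 in blue. Rab29 goes from 12.5% and 12.2% to 52.1% and 54.5% of the set with Rab32 and Rab38, and Rab33a from 28.6% and 26.7% to 1.73% and 1.61%.

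Related Rabs differ enough in sequence for reads to be assigned to 1 gene in most cases. The closest pair by coding sequence, Rab6a and Rab6b, shared 78.4% of bases. In the sense direction, 42 of the 59 members shared no stretch of 75 bases with a transcript of any other gene in GENCODE vM21. Opposite strands were not compared, so these numbers leave out overlaps with opposite-strand genes. Only Rab43 (74.2% of its stretches, with Gm45140) and Rab4b (52.5%, with Gm21983) shared over 10%, and the next, Rab7, shared 8.95%, with the pseudogene Rab7-ps1. Gm21983 had no count in any library, though its exons cover 65% of the exon length of Rab4b on the same strand. How reads in shared exons were counted is not given. If they were left out, the FPKM of Rab4b and Rab43, divided by full exon length, is too low. Because the kit does not mark strand, the same would hold for genes overlapped on the opposite strand. Rab24 (62.4% of exon length) and Rab20 (25.6%) are among them. Opposite-strand exons also overlap 59.3% of Rab2b (Gm43766, 1 to 8 counts per library), 18.7% of Rab33b (Gm38160) and 18.6% of Rab39b (Gm15063).

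The proteins that act on Rabs were examined as 5 lists. Of 36 GEFs, all tested, 12 were higher and 19 lower in M2, with a median change of -0.22; on total counts 20 were higher and 11 lower. Of 42 GAPs, 40 were tested, with 20 higher and 11 lower (32 and 5 on total counts) and a median of 0.17. Of 51 effectors, 43 were tested, with 23 higher and 14 lower (30 and 11 on total counts) and a median of 0.36. The shares called were 86.1%, 77.5% and 86%, beside 77.2% of all tested genes, whose median change was 0.04. Mlph, Sytl2, Sytl4, Rab11fip4 and Bicd1, among the effectors called higher, held at most 5 counts in either M1 library. They passed the filter only through M2, and the GEF Dennd3, called lower, only through M1. The filter thus favoured the direction of these genes. With the filter at 5 CPM in 2 libraries, 18 effectors were higher and 14 lower.

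The GEF with the largest change was Rab3il1, an exchange factor of the Rab8 and Rab3 class, at 2.51 and 2.16 CPM in M1 and 386 and 390 in M2 (7.37 ± 0.10, adjusted p = 1.49e-17). Its M2 libraries were 165-fold above M1, and its relative Rab3ip, the Rab8 exchange factor Rabin8, was lower (-1.76, adjusted p = 3.21e-10). Other GEFs higher in M2 were Dennd2a (3.93), Dennd4c (2.35) and Als2cl (2.16), of the DENN domain and alsin families. Lower in M2 were Ric1 (-2.23), part of the exchange factor for Rab6, and the DENN proteins Dennd6b (-1.74) and Dennd4a (-1.66). The Mon1-Ccz1 exchange factor of Rab7 was lower through Mon1b (-0.97), Mon1a (-0.30, but 0.15 on total counts) and Ccz1 (-0.62), while Rab7 was higher. Those 3 genes were named after their values were seen.

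Among the GAPs, the TBC domain proteins Tbc1d16 (3.97), Tbc1d2 (3.53) and Tbc1d8 (2.23) and Sgsm2 (1.93) were higher in M2. Tbc1d2, which inactivates Rab7, was at 1.65 and 1.38 CPM in M1 and 17.8 and 17.6 in M2 (adjusted p = 2.15e-12), and Tbc1d16, known as a Rab4 GAP, at 1.72 and 1.83 and at 28.1 and 27.5 (adjusted p = 1.11e-13). Tbc1d23 (-1.60), Tbc1d9 (-1.52), Rabgap1l (-1.13) and Tbc1d10b (-1.04) were lower. The GAP list took in all genes with a Tbc1d symbol, so a listed gene need not encode an active Rab GAP. For Rab7 and Rab4a, the Rab and the GAP named with it were both higher in M2.

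Of the effectors, Rilp, which joins Rab7 to dynein, was at 1.89 and 1.42 CPM in M1 and 16.2 and 15.3 in M2 (3.23 ± 0.14, adjusted p = 1.30e-11), in the same direction as Rab7 and Rab34, which it binds. A pair of Rab11 effectors moved apart: Rab11fip5 was higher (2.43 ± 0.08, adjusted p = 1.03e-12) and Rab11fip1, at 285 and 288 CPM in M1 and 14.7 and 14.5 in M2, lower (-4.30 ± 0.07, adjusted p = 1.24e-16). Myo5a, a myosin motor for Rab11 and Rab27 carriers, was higher (1.78), as was the Rab1-binding oxidoreductase Mical1 (1.59). Sytl3, a Rab27 effector of granule docking, was at 20.7 and 22.8 CPM in M1 and at 0.16 and 0.0434 in M2, where the libraries held 5 and 2 counts (adjusted p = 8.98e-14). Sytl3 passed the filter on low counts only through M1, which favoured its direction. Inpp5b, an inositol phosphatase that binds Rab5 (-3.66), and the Rab8 and Rab13 adaptor Micall2 (-2.53) were lower too.

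The genes that prenylate Rabs or carry them through the cytosol are shared by the whole family. Of 8 prenylation and recycling genes, Chml (0.69) and Gdi2 (0.23), a Rab escort protein and a GDP dissociation inhibitor, were higher, and 4 were lower, among them the prenyltransferase subunits Rabggta (-0.54) and Rabggtb (-0.49) and Rabif (-0.30, but 0.15 on total counts). Chm and Rabac1 were not called. On total counts 4 of the 8 were higher and 1 lower, and the prenyltransferase subunits were not called (-0.09 and -0.05). Among 5 Rab kinases and phosphatases, the kinase gene Lrrk2, whose product phosphorylates Rab8a, Rab10, Rab12 and Rab29, was at 18.8 and 16 CPM in M1 and 6.77 and 6.43 in M2 (-1.41 ± 0.11, adjusted p = 1.17e-08). The phosphatase genes Ppm1h (-0.82) and Ppm1m (-0.27, but 0.18 on total counts) were lower as well, and Lrrk1 was not called. Ppm1j, with 1 and 3 counts in M1 and 36 and 30 in M2, was higher and passed the filter only through M2.

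**Figure D5:**
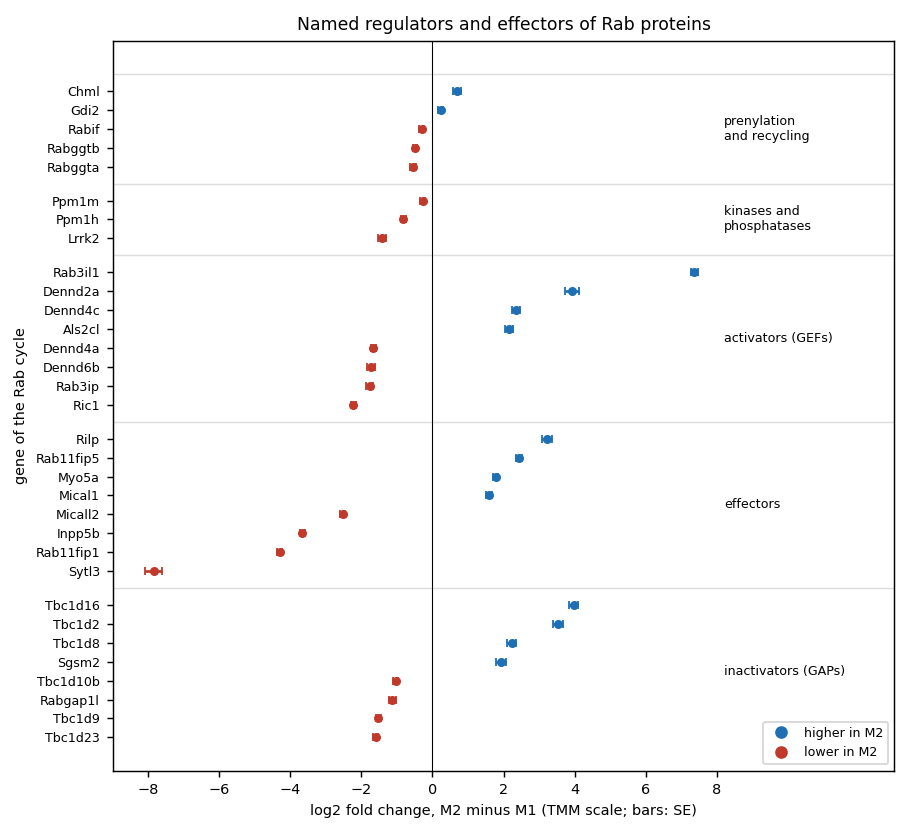
Log2 fold change (M2 minus M1, TMM scale) of the named genes of the 5 lists of proteins that act on Rabs, with bars of 1 SE, blue for higher and red for lower in M2. Rab3il1 (7.37) and Sytl3 (-7.85) lie farthest from 0, and Sytl3 rests on 5 and 2 counts in M2 and passed the filter only through M1. Rabif and Ppm1m, lower here, turn to 0.15 and 0.18 on total counts.

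Markers of other cell types moved between the groups as well, and their part in the Rab results was not tested. The 6 fibroblast markers summed to 119 and 111 CPM in M1 and 1137 and 1162 in M2, with the collagen genes Col1a1, Col1a2 and Col3a1 and the receptor gene Pdgfra higher and Dcn and Lum lower. The 5 megakaryocyte and platelet markers summed to 14.7 and 16.8 CPM in M1 and 26.3 and 31.5 in M2, and the 4 eosinophil markers to 0.549 and 0.203 and to 5.36 and 6.84. The 5 dendritic cell markers summed to 33.4 and 34.4 CPM in M1 and 2.65 and 2.32 in M2, beside the lower Rab43 in M2. Xcr1 alone made up 30.9 and 31.9 CPM of the M1 sums. Zbtb46 went the other way, at 0.858 and 0.935 CPM in M1 and 2.2 and 1.41 in M2. The 6 mast cell and basophil markers summed to 7.69 and 7.08 CPM in M1 and 1.21 and 1.43 in M2, a sum that Kit makes up almost alone in M1 (7.17 and 6.59 CPM, and 0.223 and 0.304 in M2). Of the other mast cell and basophil markers, Mcpt8 had 2 and 3 counts in M1 and 10 and 27 in M2, Gata2 0.412 and 0.366 CPM and 0.511 and 0.478, and Ms4a2 none, beside the higher Rab44 in M2. The 5 epithelial markers summed to 0.378 and 0.61 CPM in M1 and 2.94 and 3.52 in M2, beside the higher Rab19. Krt19 (0.275 and 0.244 CPM in M1, 1.66 and 1.65 in M2) and Cdh1 (0.0686 and 0.0407, 1.15 and 1.76) made up that rise. Epcam, Krt8 and Krt18 did not share it and had at most 6 counts in any library. Of the melanocyte markers, Tyr, Tyrp1, Dct and Mlana had no count in any of the 4 libraries, beside Rab32 and Rab38, which melanocytes also use. Neutrophil, T cell, B cell, NK cell and erythroid markers summed to at most 10 CPM in each library.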

How the data were processed

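Poly(A) RNA of 4 libraries was sequenced as paired reads after oligo(dT) selection with a kit that does not mark strand, per the labels' protocols. Whole, unnormalized counts of reads for each gene were deposited by the authors. The submitters' processing notes name STAR 2.5.2b, Trimmomatic 0.36, Subread 1.5.2, featureCounts, DESeq and DESeq2, and the build GRCm38, and the role or setting of each is not given in the sources. The authors' comparison table was not used.

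Gene IDs were named from GENCODE vM21. Library totals ran from 26806370 to 39506242 counts, with a biological coefficient of variation of 0.0528. All genes were fitted in edgeR 4.0.16 (R 4.3.3): filterByExpr (count minimum 10, total 15), TMM, robust quasi-likelihood, a two-sided F test with Benjamini-Hochberg adjustment, and calls at 0.05. Standard errors were derived as the absolute log2 change over the root of the F statistic. TMM factors were 0.846 and 0.866 for M1 and 1.17 in both M2 libraries, so scaling differs between the groups and is given beside results it turns. The fit was also run on simulated counts in which few genes changed, in random directions. Most genes differ here, so that run does not test the scaling. Exact 95% intervals and floors of 3 counts cover counting error only, since the reads carry no molecular identifiers.

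Alternatives were RLE, upper-quartile and total-count scaling, no filter, a filter at 5 CPM in 2 libraries, DESeq2 1.42.0, limma-voom (limma 3.58.1), a fit without robust spread, glmTreat beyond a log2 change of 1, and leaving out each library, after which the lone library is taken to vary like the other group.

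Every tested Rab gene is named; values per library are given for those called with an absolute log2 change of at least 1 and for the 10 most abundant by FPKM. Of each list of acting proteins, up to 4 called genes per direction are named by absolute change, with at least 5 CPM in the higher group and no overlap; 1 such gene is not reported here. The members and lists were chosen with earlier results of these data known.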

Additional observations from a re-analysis of the deposited data

How the results depend on the processing

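Apart from glmTreat, 25 of the 49 tested Rab genes kept direction and call under all 12 other alternatives, and 5 more (Rab4a, Rab27b, Rab33a, Rab36 and Rab44) under the 11 in which they were tested, since the 5 CPM filter leaves them out. Of the alternatives that ask the same question as the main test, scaling moved most Rab calls: against TMM, the median change of all tested genes moved by -0.03 with RLE factors, 0.18 with upper-quartile scaling and 0.45 on total counts. Rab genes called higher went from 17 to 27 on total counts and lower from 24 to 15; upper-quartile scaling gave 18 and 18, RLE 17 and 25, DESeq2 16 and 24 and limma-voom 17 and 25. GlmTreat asks the stricter question of a change beyond 1 and gave 7 higher and 5 lower Rabs, and 4840 of 11312 calls over all genes. Leaving out 1 library gave 16 to 18 higher, 22 to 25 lower, and 10167 to 11525 calls over all genes. Counts are not tested against each other.

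With upper-quartile scaling the sign turned for Rab11b (0.01), Rab27a (0.09), Rab28 (0.11), Rab2a (0.09), Rab35 (0.08) and Rab8b (0.03). On total counts it turned for Rab11b (0.28), Rab18 (0.09), Rab1a (0.17), Rab21 (0.16), Rab24 (0.11), Rab27a (0.35), Rab28 (0.38), Rab2a (0.35), Rab35 (0.35), Rab5b (0.15), Rab8b (0.30) and Rab9 (0.14); the alternative's construction, which drops the factors that differ between groups, moves all genes alike. Without M1 replicate 2 it turned for Rab27a (0.14), Rab38 (-0.08) and Rab3a (-0.13), without M2 replicate 1 for Rab27a (0.11), and without M2 replicate 2 for Rab3a (-0.11); none of these 3 genes was called, and with each library left out in turn they ran from -0.39 to 0.14 (Rab27a), -0.08 to 0.77 (Rab38) and -0.13 to 0.27 (Rab3a). Rab8b gained a call with RLE (-0.18), DESeq2 (-0.18), limma-voom (-0.15) and without M1 replicate 2 (-0.23). Without M1 replicate 2 Rab2a gained a call (-0.13), and Rab35 did without M1 replicate 1 (-0.13). Rab13 lost its call with DESeq2 (0.37), and Rab11b without a filter (-0.11).

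For the lists, total counts gave 4 higher and 1 lower prenylation genes (from 2 and 4), 20 higher and 11 lower GEFs (from 12 and 19), 32 higher and 5 lower GAPs (from 20 and 11), and 3 higher kinases and phosphatases (from 1). Upper-quartile scaling gave 4 higher prenylation genes and 7 lower GAPs, and the 5 CPM filter 0 higher kinases and phosphatases, since fewer genes were tested. GlmTreat gave 0 and 0 prenylation genes, 7 lower GEFs, 6 and 3 GAPs, 10 and 7 effectors, and 1 lower kinase or phosphatase. Leaving out 1 library gave 1 to 2 higher prenylation genes, the lowest without M2 replicate 2. The cause of these shifts was not tested beyond the scaling. No paired analysis was possible because the replicate numbers follow the order of the records and pair nothing. With 2 libraries per group, Rabs under about 1 CPM (Rab36, Rab38, Rab39b and Rab44) rest on few counts.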
